A study of Mus musculus with 25 samples.

Results

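The 10 genes described here belong to blood vessels and were followed through 25 mouse RNA-seq libraries of white adipose tissue. They were chosen by symbol from the 54752 genes counted, with earlier results of these data known. They are *Pecam1* and *Cdh5*, which make adhesion molecules of endothelial cell contacts, the receptor genes *Kdr*, *Flt1*, *Flt4*, *Tek* and *Tie1*, and the ligand genes *Angpt1*, *Angpt2* and *Vegfa*. All 10 passed the filter on low counts in every comparison, and their counts ranged from 55 (*Angpt1*) to 17853 (*Vegfa*) reads in a library. Epididymal fat (eWAT) gave 4 libraries from wild type (WT) mice on normal diet (ND), 5 from WT mice on high-fat diet (HFD) and 5 from *Acod1*-/- mice on HFD, and inguinal fat (iWAT) gave 3, 5 and 3 libraries of the same kinds. No ND-fed *Acod1*-/- mice were analysed here. The mice were C57BL/6N males, the HFD, with fat as 60% of calories, started at 5 weeks of age, and libraries are labelled 16 weeks except iWAT libraries 2 and 3 of *Acod1*-/- mice, labelled 17 and 18. The knockout is the Acod1em1(IMPC)J allele, which is present in every cell, so that no cell type is singled out by it. The labels number the libraries of a group without saying that each is a separate animal. The authors' figure legends give as many mice in each group as there are libraries here. The p-values measure the spread between these libraries.

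Blood vessels of fat grow and regress with the tissue. Endothelial cells line them, and VEGF-A, a secreted growth factor that fat cells also make, drives their growth and permeability through the receptor encoded by *Kdr*, while the receptor encoded by *Flt1* binds the same factor and limits how much of it reaches *Kdr*. *Flt4* encodes the receptor for VEGF-C and VEGF-D, best known from lymphatic vessels. Angiopoietin 1, from cells around the vessel, activates the receptor encoded by *Tek* and keeps vessels quiescent, angiopoietin 2, made by endothelial cells themselves, mostly opposes it, and *Tie1* encodes the partner of that receptor, which binds neither directly.

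The promoter windows of 4 of these genes are shown because their genes took different courses over the same groups: *Kdr* and *Flt1* were lower on HFD in eWAT, *Tek* was higher on HFD in iWAT, and *Vegfa* was lower on HFD in both. They are RefSeq windows in build GRCm38.p6 with up to 250 bases before the start of the gene, printed 5′ to 3′ on the gene's strand. *Kdr* is chr5:75978459-75978705 (minus strand, without the last 3 bases of the window, which lie in the gene), *Flt1* is chr5:147726012-147726261 (minus strand), *Tek* is chr4:94739039-94739288 (plus strand) and *Vegfa*, at its outer start, is chr17:46032378-46032627 (minus strand). Capitals mark the core GGAA, or TTCC for the other strand, that ETS factors such as the endothelial factor ERG bind.
Kdr: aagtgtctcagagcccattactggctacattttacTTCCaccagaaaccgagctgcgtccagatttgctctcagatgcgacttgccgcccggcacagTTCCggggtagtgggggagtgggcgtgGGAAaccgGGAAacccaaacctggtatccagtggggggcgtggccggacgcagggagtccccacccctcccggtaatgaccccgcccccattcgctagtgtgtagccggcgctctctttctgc
Flt1: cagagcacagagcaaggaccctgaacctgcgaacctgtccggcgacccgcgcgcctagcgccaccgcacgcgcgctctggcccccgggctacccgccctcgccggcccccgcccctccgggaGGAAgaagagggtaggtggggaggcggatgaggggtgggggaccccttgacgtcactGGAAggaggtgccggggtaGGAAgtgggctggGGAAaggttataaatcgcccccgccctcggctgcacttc
Tek: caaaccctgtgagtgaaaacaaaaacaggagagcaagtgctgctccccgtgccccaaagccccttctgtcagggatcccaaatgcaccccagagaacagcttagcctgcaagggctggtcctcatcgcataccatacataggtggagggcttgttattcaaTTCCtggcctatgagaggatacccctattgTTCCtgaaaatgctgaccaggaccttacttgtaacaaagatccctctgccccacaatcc
Vegfa: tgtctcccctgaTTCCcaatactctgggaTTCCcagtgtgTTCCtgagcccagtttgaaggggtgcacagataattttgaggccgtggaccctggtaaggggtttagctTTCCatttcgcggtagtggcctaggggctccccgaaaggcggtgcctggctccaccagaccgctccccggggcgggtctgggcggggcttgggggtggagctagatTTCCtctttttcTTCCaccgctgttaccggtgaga

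These windows held 4, 4, 2 and 6 copies of the ETS core. Since 93.4% of 32851 promoter windows of 250 bases hold at least 1 copy (median 3), the core does not set these genes apart. The hypoxia response core (ACGTG or GCGTG on either strand), found in 38.6% of the windows, occurred 2 times in *Kdr*, 1 time in *Flt1* and in neither of the other two sequences. *Flt4* and *Tie1* have windows that lie mostly or wholly inside the gene model of the annotation used for the symbols and are not printed. A second *Vegfa* window (chr17:46025164-46025413) also lies inside the gene model and is not printed. It held 2 copies of the hypoxia response core and 2 of the ETS core. *Pecam1*, *Cdh5*, *Angpt1* and *Angpt2* have no entry.

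Levels of different genes were compared per length, as FPKM. In ND-fed eWAT *Vegfa* was the highest with 69.9 FPKM, followed by *Cdh5* with 52.6 and *Pecam1* with 34.9. *Tie1* (17.5 FPKM) and *Kdr* (17.2) differed by less than their spread, as did *Flt1* (9.47) and *Tek* (9.09), and *Angpt1* (4.46), *Angpt2* (2.79) and *Flt4* (2.07) came last. On HFD the order in eWAT changed, and *Cdh5* (32.5 FPKM) stood above *Vegfa* (23.9). In iWAT *Vegfa* led on ND with 58.4 FPKM against 29.3 for *Cdh5*, and *Cdh5* led on HFD with 55.6 FPKM against 35.5 for *Vegfa*.

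Counted reads per library ranged from 31.41 to 52.34 M. *Acod1* itself had at most 9 counts in any library and did not check the genotype. The column headers number the libraries in 2 series, with 14 libraries in series 1 and 11 in series 2, and all ND-fed libraries are in series 2 with 1 HFD-fed library of each group, so that diet and series can be told apart only through those. Markers of other cell types also moved with the groups. The summed level of 8 macrophage genes was 417 to 801 CPM (counts relative to library size, on the usual per-M scale) in ND-fed eWAT, 1230 to 4080 CPM on HFD and 350 to 1260 CPM in *Acod1*-/- eWAT, and 435 to 531, 431 to 1100 and 368 to 412 CPM in iWAT. The summed level of 8 lymphocyte and lymph node genes was 558 to 830 CPM in the 3 ND-fed iWAT libraries and 2.33 to 85.1 CPM in the other iWAT libraries. Epididymis genes reached 7880 CPM in library 2 of ND-fed eWAT, and skeletal muscle genes 6800 CPM in library 1 of ND-fed iWAT. Genes of red blood cells were at 669 to 1670 CPM in ND-fed eWAT and at 222 to 629 CPM in HFD-fed WT eWAT. Of all genes tested for diet 24.8% were called higher on HFD and 26.9% lower in eWAT, and 25.9% higher and 24.2% lower in iWAT. On HFD 5 of 5 fibroblast genes rose in both depots, 3 of 8 adipocyte genes fell and 1 rose in eWAT, and 5 of 8 rose in iWAT, with the 8 adipocyte genes summing to 20200 CPM or more in every library, as fat tissue requires. Of 5 mesothelial genes 3 fell in eWAT, and of 3 platelet genes tested 1 rose and 2 fell in eWAT and 1 rose and 1 fell in iWAT. The part of these in the results that follow was not tested.

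**Figure D1:**
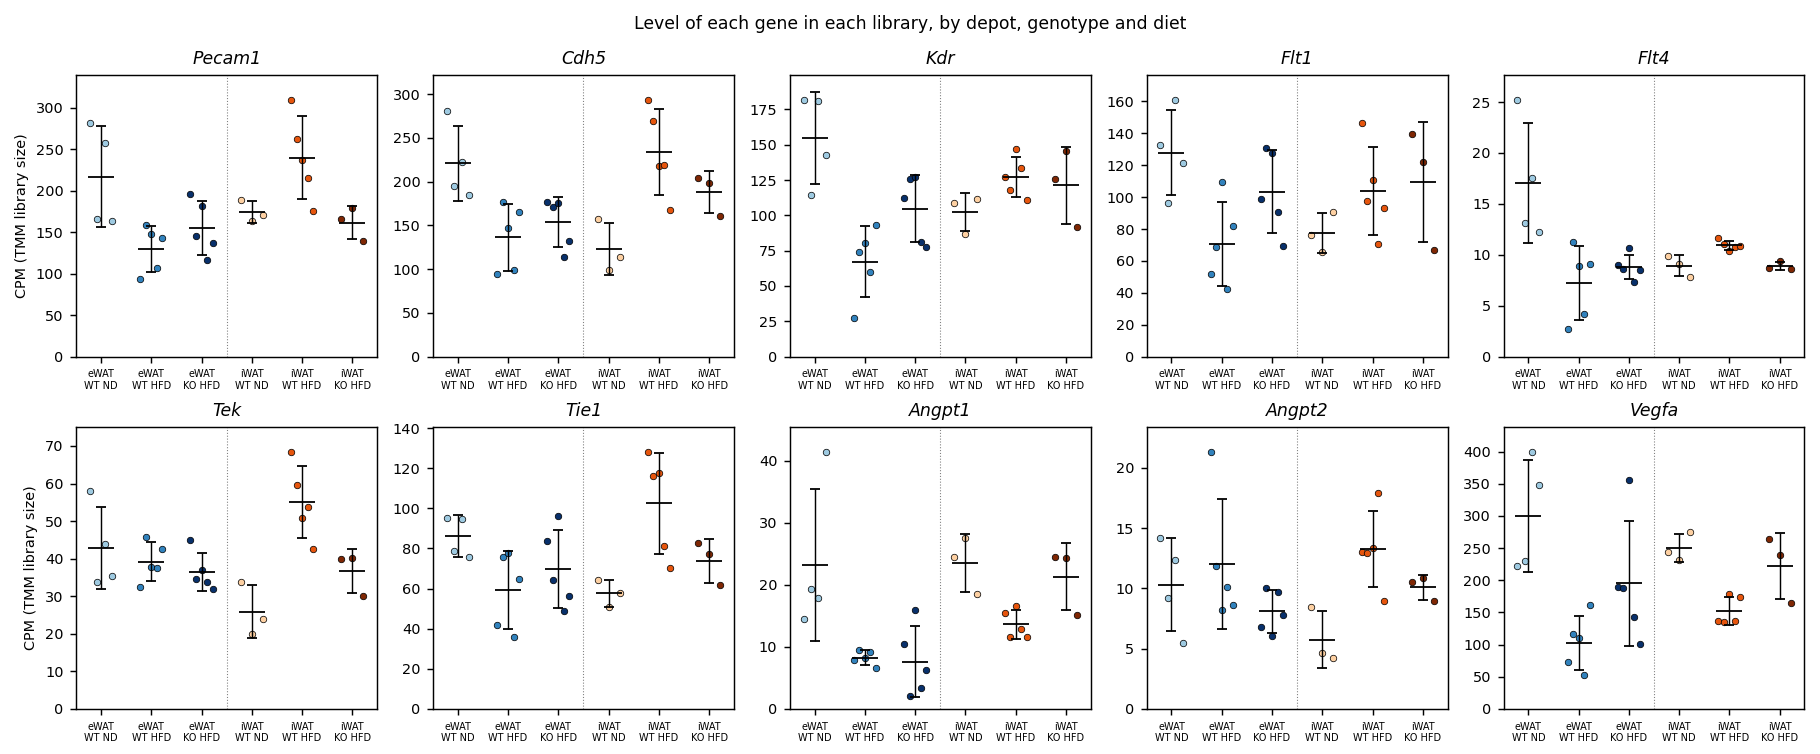
Level of each of the 10 genes in each of the 25 libraries (y axis, CPM on library sizes scaled by TMM, starting at 0) by depot, genotype and diet (x axis; KO is *Acod1*-/-). Points are libraries, and bars and whiskers are the mean and 1 SD. HFD-fed WT libraries lie lower than ND-fed ones for *Kdr* and *Vegfa* in eWAT, and higher for *Cdh5* and *Tek* in iWAT.

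In eWAT of WT mice, HFD went with lower levels of most of these genes. The test (edgeR, called at an adjusted p under 0.1) called 8 of the 10 genes, all 8 lower on HFD. Of the 14936 genes tested 51.8% were called, 26.9% of them lower on HFD and 24.8% higher, counted over all genes tested. The median log2 fold change of the 10 genes was -0.80, against -0.04 for all genes. *Tek* and *Angpt2* were the genes not called. In 6 of the 10 genes every HFD library lay below every ND library, which held for 18.0% of all genes.

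The growth factor and its main receptor fell most clearly. *Vegfa* was at 222, 229, 399 and 348 CPM in the ND libraries and at 72.9, 116, 111, 52.3 and 161 CPM in the HFD libraries. The groups did not overlap, and the level fell 2.92-fold, by 1.55 on the log2 scale (SE 0.36, adjusted p = 0.00476). *Kdr* was at 182, 114, 181 and 143 CPM on ND and at 27.6, 74.1, 80.3, 59.7 and 93.4 CPM on HFD. All 5 HFD libraries were again below all 4 ND libraries, with library 1 of the HFD group the lowest, and *Kdr* fell 2.31-fold (log2 fold change -1.21, SE 0.28, adjusted p = 0.00483).

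The other VEGF receptor genes fell too. *Flt4* was at 25.2, 13.2, 17.5 and 12.3 CPM on ND and at 2.7, 11.3, 8.93, 4.2 and 9.07 CPM on HFD. No HFD library reached the lowest ND library, and the difference was 2.35-fold (log2 fold change -1.23, SE 0.35, adjusted p = 0.0128). *Flt1*, the decoy receptor, was at 133, 96.2, 161 and 122 CPM on ND and at 51.7, 68.4, 109, 42.7 and 82.1 CPM on HFD. Here HFD library 3 lay above ND library 2, and the fall was 1.80-fold (adjusted p = 0.0179).

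Both genes of endothelial cell contacts fell by less than *Kdr*. *Cdh5*, which encodes VE-cadherin, was at 281, 195, 223 and 185 CPM on ND and at 93.9, 177, 147, 98.5 and 165 CPM on HFD, without overlap (log2 fold change -0.69, SE 0.21, adjusted p = 0.0178). *Pecam1*, which encodes CD31, was at 282, 166, 258 and 164 CPM on ND and at 94.2, 158, 147, 107 and 143 CPM on HFD, also without overlap (log2 fold change -0.74, SE 0.21, adjusted p = 0.0141). In bulk tissue fewer endothelial cells and less RNA of a gene per cell cannot be told apart.

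Within the angiopoietin pathway the ligand *Angpt1* fell, from 14.4, 19.3, 17.8 and 41.3 CPM on ND to 7.89, 9.45, 8.24, 9.18 and 6.57 CPM on HFD. The groups were apart, ND library 4 stood above the other ND libraries, and the log2 fold change was -1.49 (SE 0.47, adjusted p = 0.0224). *Tie1* fell by 0.54 on the log2 scale (adjusted p = 0.0868) with overlapping groups, and its call was lost without any one of 6 of the 14 eWAT libraries. For the receptor gene *Tek*, 58.0, 33.9, 44.01 and 35.5 CPM on ND stood beside 32.4, 45.8, 37.9, 37.5 and 42.6 CPM on HFD. These ranges overlapped almost fully (log2 fold change -0.13, 95% interval -0.47 to 0.22, adjusted p = 0.548). *Angpt2* was at 5.43 to 14.2 CPM on ND and at 8.24 to 21.3 CPM on HFD (log2 fold change 0.22, 95% interval -0.46 to 0.90, adjusted p = 0.591).

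The same comparison with the series as a term called 5 of these genes, all lower on HFD, where it called 34.4% of all genes and 16.9% lower. It no longer called *Cdh5*, *Flt4* and *Tie1* (adjusted p = 0.132, 0.132 and 0.213). The 1 HFD-fed WT library of series 2 lay below all ND libraries for 8 genes and within their range for *Tek* and *Angpt2*. The share of all genes lying so was not counted, so that these positions of 1 library are description only. Without ND library 2, which carried the epididymis genes, 7 genes were called, where 44.9% of all genes were called and 22.4% were lower.

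In iWAT of WT mice most of the endothelial genes were higher on HFD, while *Vegfa* and *Angpt1* were lower, as they were in eWAT. Of the 10 genes 7 rose and 2 fell. The share of all 14801 genes called was 50.1%, with 25.9% higher and 24.2% lower. The median log2 fold change was 0.47, against 0.00 for all genes. Every HFD library lay above every ND library for 5 genes and below for 2, which held for 23.0% and 24.1% of all genes.

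The receptor gene of the angiopoietins, which was not called in eWAT, rose in iWAT. *Tek* was at 33.8, 19.9 and 23.9 CPM on ND and at 68.3, 59.7, 50.9, 53.8 and 42.5 CPM on HFD. All 5 HFD libraries were above all 3 ND libraries, and *Tek* rose 2.17-fold (log2 fold change 1.12, SE 0.19, adjusted p = 0.00124). *Tie1* was at 64.2, 50.7 and 58.0 CPM on ND and at 128, 116, 118, 81.3 and 70.3 CPM on HFD, and rose 1.82-fold (adjusted p = 0.00517) without overlap. *Angpt2*, which is made where vessels remodel, was at 8.44, 4.61 and 4.21 CPM on ND and at 13.0, 13.0, 13.3, 17.9 and 8.99 CPM on HFD. HFD library 5 was only just above ND library 1, and the rise was 2.36-fold (log2 fold change 1.24, SE 0.27, adjusted p = 0.00425).

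The adhesion genes rose by different amounts. *Cdh5* was at 157, 98.8 and 114 CPM on ND and at 293, 269, 218, 219 and 168 CPM on HFD, apart in all libraries, and rose 1.94-fold (log2 fold change 0.95, SE 0.20, adjusted p = 0.00303). *Pecam1* was at 189, 163 and 171 CPM on ND and at 309, 262, 237, 216 and 175 CPM on HFD. HFD library 5 lay within the ND range, and the rise was 1.40-fold (log2 fold change 0.49, SE 0.16, adjusted p = 0.0321).

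The VEGF receptor genes moved by less than the angiopoietin receptor genes in iWAT. *Kdr* was at 109, 86.8 and 111 CPM on ND and at 127, 118, 147, 133 and 111 CPM on HFD, a rise of 1.27-fold (adjusted p = 0.0935). *Flt4* was at 9.89, 9.08 and 7.85 CPM on ND and at 11.6, 11.01, 10.4, 10.8 and 10.8 CPM on HFD, 1.25-fold higher without overlap (adjusted p = 0.0808). Both calls rested on the choice of threshold and libraries, since 8 of the 11 ways of leaving out a library ended the call of *Kdr* and 9 of 11 that of *Flt4*. *Flt1* was at 65.4 to 90.5 CPM on ND and at 70.7 to 146 CPM on HFD and was not called (log2 fold change 0.45, 95% interval -0.11 to 1.01, adjusted p = 0.174).

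The ligand genes *Vegfa* and *Angpt1* fell in iWAT. *Vegfa* was at 244, 232 and 274 CPM on ND and at 136, 135, 179, 136 and 174 CPM on HFD. No library overlapped, and the fall was 1.61-fold (log2 fold change -0.69, SE 0.16, adjusted p = 0.00623). *Angpt1* was at 24.5, 27.6 and 18.5 CPM on ND and at 15.5, 11.5, 16.6, 12.9 and 11.6 CPM on HFD, also apart (log2 fold change -0.76, SE 0.19, adjusted p = 0.0092).

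With the series as a term 5 genes were called in iWAT: *Cdh5*, *Tek* and *Angpt2* higher and *Angpt1* and *Vegfa* lower. Of all genes 38.8% were called there, 21.4% higher and 17.5% lower, so that the count in each direction was near these shares. The rises of *Pecam1*, *Kdr*, *Flt4* and *Tie1* were no longer called (adjusted p = 0.499, 0.796, 0.215 and 0.113). The HFD-fed WT library of series 2 lay above all ND libraries for 6 genes, below them for *Angpt1* and *Vegfa*, and within their range for *Pecam1* and *Kdr*. Here too the share of all genes lying so was not counted, and the positions are description only. All 3 ND libraries carried the lymph node genes, so that no comparison without these could be made. Without ND library 1, which carried the muscle genes, 8 genes were called, where 44.3% of all genes were called.

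**Figure D2:**
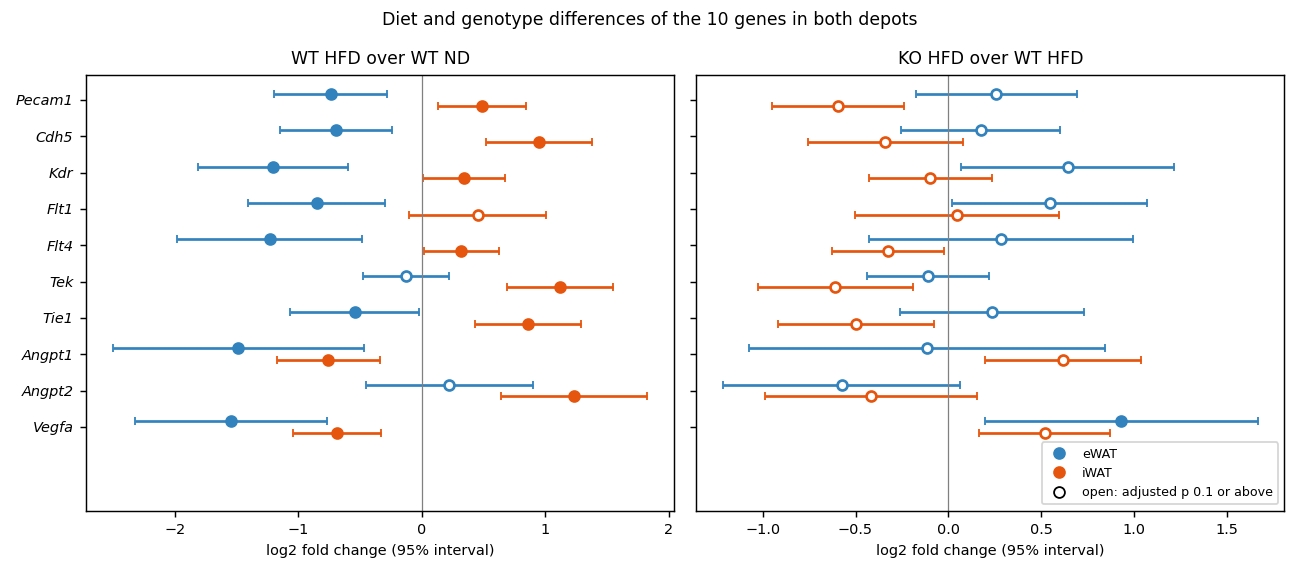
Log2 fold change (x axis) of each gene with its 95% interval for diet in WT mice (left) and for genotype on HFD (right), in eWAT (blue) and iWAT (orange), from edgeR. Filled points passed an adjusted p under 0.1, and diet values of *Pecam1*, *Cdh5*, *Kdr*, *Flt1*, *Flt4* and *Tie1* lie below 0 in eWAT and above 0 in iWAT.

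Whether the diet response differed between the depots was tested directly, as the interaction of depot and diet in a fit of all 25 libraries. It differed for 7 of the 10 genes, in all 7 with a lower value in eWAT, where 29.0% of 15034 genes were called and 15% had a lower value in eWAT. These were both adhesion genes and all 5 receptor genes. The difference (eWAT minus iWAT, log2) was -1.62 for *Cdh5* (SE 0.31, adjusted p = 0.000844), -1.22 for *Tek* (SE 0.26, adjusted p = 0.0021) and -1.52 for *Kdr* (SE 0.36, adjusted p = 0.00499). It lay between -1.52 and -1.20 for *Pecam1*, *Flt1*, *Flt4* and *Tie1*, with adjusted p-values from 0.00563 to 0.0237. The 3 ligand genes were not called: the difference was -0.83 for *Vegfa* (95% interval -1.76 to 0.10, adjusted p = 0.2), -0.70 for *Angpt1* (95% interval -1.91 to 0.51, adjusted p = 0.422) and -0.98 for *Angpt2* (95% interval -1.89 to -0.07, adjusted p = 0.115). The same 7 genes were called with the series as a term, with differences from -1.60 to -1.18. The labels do not say which libraries of the depots come from the same mouse, and the fit took all as independent.

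Ratios within a library give how these genes moved against each other. The 7 ratios were chosen after the values were seen and tested in 4 comparisons, 28 tests in all, with two-sided exact permutation tests that can reach p = 0.0159 at best for diet in eWAT and p = 0.0357 at best in iWAT. Each CPM was divided by the length of its gene before the ratio was taken, and ratios are compared between groups only. The values on HFD in this paragraph are those of WT mice. *Tek*/*Cdh5* was 0.155 to 0.184 in ND-fed eWAT and 0.23 to 0.339 on HFD, and 0.18 to 0.192 and 0.198 to 0.226 in iWAT. It was higher in every HFD-fed WT library than in any ND-fed library of the same depot (exact permutation p = 0.0159 and p = 0.0357, adjusted p = 0.0833 for each). *Kdr*/*Cdh5* moved the other way, from 0.272 to 0.378 on ND to 0.137 to 0.282 on HFD in eWAT and from 0.324 to 0.455 to 0.201 to 0.313 in iWAT (exact permutation p = 0.0317 and p = 0.0357, adjusted p = 0.0833 for each). *Angpt2*/*Angpt1* was 0.185 to 1.39 on ND and 1.41 to 3.80 on HFD in eWAT and 0.235 to 0.486 and 1.09 to 1.96 in iWAT (exact permutation p = 0.0159 and p = 0.0357, adjusted p = 0.0833 for each). *Flt4*/*Cdh5* was lower on HFD in eWAT (log2 difference -0.64, SE 0.24, exact permutation p = 0.0159, adjusted p = 0.0833) and did not pass in iWAT (-0.63, SE 0.21, exact permutation p = 0.0714, adjusted p = 0.154). *Pecam1*/*Cdh5* was lower in every HFD library of iWAT (-0.49, SE 0.14, exact permutation p = 0.0357, adjusted p = 0.0833), with a difference of 0.00 in eWAT (SE 0.12, exact permutation p = 0.984). *Flt1*/*Cdh5* did not pass in either depot (exact permutation p = 0.476 and p = 0.143), with log2 differences of -0.18 (SE 0.22) and -0.53 (SE 0.26). *Tie1*/*Cdh5* did not pass either (exact permutation p = 0.365 and p = 0.464), with log2 differences of 0.12 (SE 0.12) and -0.12 (SE 0.14).

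**Figure D3:**
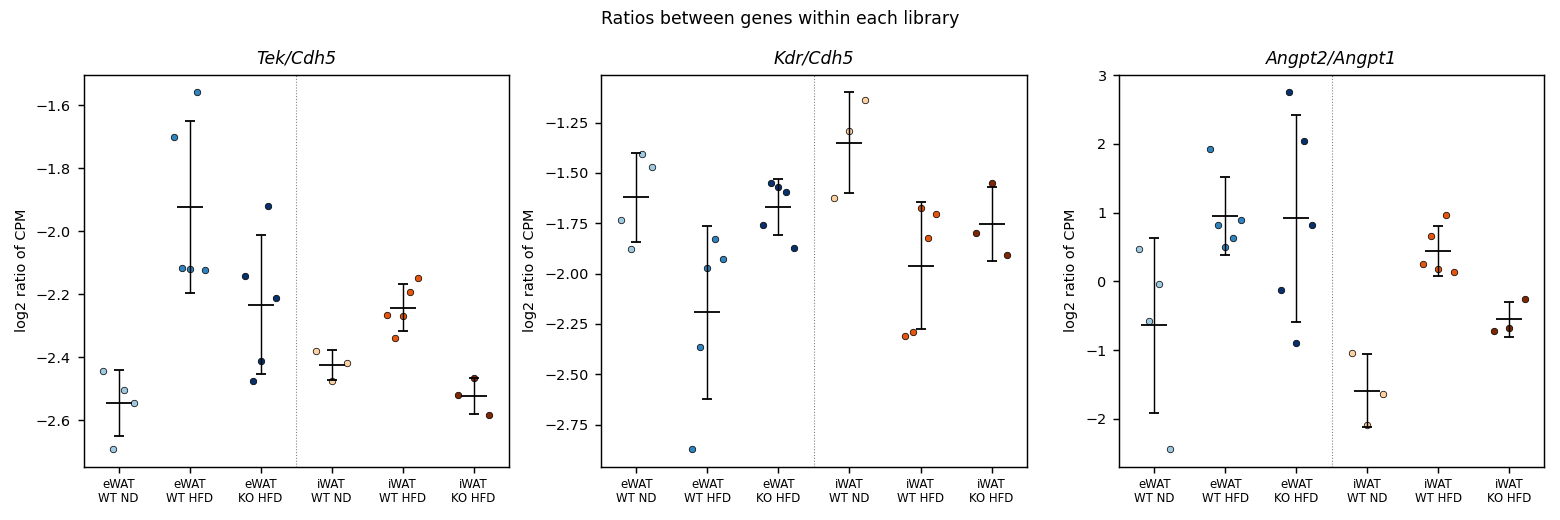
Log2 ratio of CPM, each divided by gene length, within each library (y axis) for *Tek*/*Cdh5*, *Kdr*/*Cdh5* and *Angpt2*/*Angpt1*. Groups are on the x axis (KO is *Acod1*-/-), with points for libraries and the mean and 1 SD. On HFD *Tek*/*Cdh5* and *Angpt2*/*Angpt1* of WT mice lie above their ND values in both depots, and *Kdr*/*Cdh5* lies lower on average.

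On ND the depots already differed, with 5 of the 10 genes higher in eWAT than in iWAT and none lower, where 31.7% of 15034 genes were called and 17.5% were higher in eWAT. *Cdh5* was 1.79-fold higher in eWAT (log2 difference 0.84, SE 0.24, adjusted p = 0.013), *Tek* 1.66-fold (adjusted p = 0.0113) and *Flt4* 1.90-fold (adjusted p = 0.0423). *Angpt2* (adjusted p = 0.078) and *Flt1* (adjusted p = 0.0865) made up the 5. *Vegfa* (log2 difference 0.26, 95% interval -0.46 to 0.98) and *Angpt1* (-0.02, 95% interval -0.94 to 0.91) were not called. For 6 genes every eWAT library was above every iWAT library, which held for 19% of all genes. The count dropped to 2 without eWAT library 1, iWAT library 2 or iWAT library 3, where 27.0%, 19.6% and 24.1% of all genes were called. It dropped to 3 without eWAT library 3 (28.6% of all genes), and the lymph node genes were high in all 3 iWAT libraries.

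For loss of *Acod1* on HFD in eWAT, the share of the 10 genes called higher was near that of all genes. *Vegfa* was the 1 gene of 10 that was called, higher in *Acod1*-/- mice, where 19.9% of all genes were called and 9.13% were higher. *Vegfa* was at 72.9, 116, 111, 52.3 and 161 CPM in WT libraries and at 189.8, 188, 356, 143 and 100.1 CPM in *Acod1*-/- libraries. The groups overlapped, as for all 10 genes here, while 2.81% of all genes were higher and 4.34% lower without overlap. Library 3 of the *Acod1*-/- group stood far above the rest, and the rise was 1.91-fold (log2 fold change 0.93, SE 0.34, adjusted p = 0.0902). Leaving out any one of 9 of the 14 libraries ended the call, and the value was 0.60 without *Acod1*-/- library 3 (adjusted p = 0.253).

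*Kdr* was at 27.6, 74.1, 80.3, 59.7 and 93.4 CPM in WT and at 112, 126, 127, 81.2 and 77.5 CPM in *Acod1*-/- eWAT (log2 fold change 0.64, 95% interval 0.07 to 1.22, adjusted p = 0.13). Only *Acod1*-/- libraries 4 and 5 lay within the WT range. The ratio *Kdr*/*Cdh5* was 0.137 to 0.282 in WT and 0.273 to 0.341 in *Acod1*-/- libraries (exact permutation p = 0.0159, adjusted p = 0.0833). *Flt1* had a log2 fold change of 0.55 (95% interval 0.02 to 1.07, adjusted p = 0.158). Values of *Pecam1*, *Cdh5*, *Flt4*, *Tek*, *Tie1*, *Angpt1* and *Angpt2* lay between -0.57 and 0.28 (log2), with adjusted p-values from 0.221 to 0.895. Without the series 2 libraries, *Acod1*-/- and WT eWAT differed in 2 of the 10 genes, both higher in *Acod1*-/- mice, where 25.9% of all genes were called and 11.1% were higher. Markers of other cell types differed in this comparison too. In *Acod1*-/- eWAT 8 of 8 macrophage genes and 3 of 5 fibroblast genes were lower, and 4 of 8 adipocyte genes were higher (*Adipoq*, *Plin1*, *Lipe* and *Plin4*, log2 fold changes from 0.67 to 0.75), as were 2 of 5 epididymis genes. Of all genes 10.8% were called lower and 9.13% higher. The 8 adipocyte genes summed to 20200 to 43500 CPM in WT and 36200 to 44400 CPM in *Acod1*-/- libraries, and the 5 fibroblast genes to 2080 to 3410 and 1410 to 2090 CPM. Their part in the value of *Vegfa* was not tested.

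In iWAT the test called none of the 10 genes for genotype, and none of all 14801 genes (0%), with 2468 genes at an unadjusted p under 0.05. DESeq2's Wald test called 4 of the 10 and 7.24% of all genes. *Tek* was at 68.3, 59.7, 50.9, 53.8 and 42.5 CPM in WT and at 39.9, 40.3 and 30.0 CPM in *Acod1*-/- libraries. These did not overlap, and the log2 fold change was -0.61 (95% interval -1.03 to -0.19, adjusted p = 0.164). Groups were apart in 4.59% of all genes with lower and 3.66% with higher *Acod1*-/- values. *Flt4* was apart as well, at 10.4 to 11.6 CPM in WT and 8.59 to 9.34 CPM in *Acod1*-/- libraries (log2 fold change -0.32, 95% interval -0.63 to -0.02, adjusted p = 0.272). *Pecam1* had a log2 fold change of -0.60 (adjusted p = 0.153), and *Angpt1* and *Vegfa* of 0.62 and 0.52 (adjusted p = 0.164 for each). *Vegfa* was at 264, 238 and 165 CPM in *Acod1*-/- iWAT, with library 3 within the WT range of 135 to 179 CPM.

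Within the 3 *Acod1*-/- iWAT libraries *Angpt2*/*Angpt1* was 0.606 to 0.834, below all 5 WT libraries at 1.09 to 1.96 (exact permutation p = 0.0357, the smallest this design allows, adjusted p = 0.0833). *Tek*/*Cdh5* was 0.167 to 0.181 and *Pecam1*/*Cdh5* 0.547 to 0.608 there, each also below all WT libraries (exact permutation p = 0.0357, adjusted p = 0.0833 for each). For genotype the depots were not shown to differ in any of the 10 genes (adjusted p-values of the interaction from 0.356 to 0.925), where 0.00665% of 15034 genes were called and 1524 had an unadjusted p under 0.05. DESeq2's Wald test also called 0 of the 10, and 0.639% of all genes.

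The rest of the vessel genes were read from lists of general knowledge, some of which also hold some of the 10 genes. Of 26 other pan-endothelial genes, 12 were lower and 3 higher on HFD in eWAT, and 17 were higher and 0 lower in iWAT, against 26.9% and 24.8% of all genes lower and higher in eWAT and 25.9% higher in iWAT. Their median log2 fold change was -0.51 in eWAT and 0.73 in iWAT. By the interaction of depot and diet the depots differed in 20 of the 26, all with the lower value in eWAT. Of all genes 29.0% were called in that test, and 15% had a lower value in eWAT. *Ptprb*, the phosphatase that dampens the *Tek* receptor, fell from 198 ± 45.7 to 95 ± 27.6 CPM in eWAT (SD, n = 4 and 5) and rose from 89.5 ± 26.6 to 182 ± 36.3 CPM in iWAT (n = 3 and 5), with log2 fold changes of -1.06 and 1.06 and a difference between depots of -2.08 (adjusted p = 0.000184). *Sox7*, an endothelial transcription factor gene, had log2 fold changes of -1.16 and 1.35 (adjusted p = 0.017 and 0.000847). *Robo4*, a guidance receptor gene of stable vessels, fell in eWAT (log2 fold change -1.60, adjusted p = 0.000566) and was at 0.36 in iWAT (adjusted p = 0.303). *Aplnr*, the apelin receptor gene of growing vessels, was one of 3 genes of the list called higher in eWAT, with *Cd93* and *Fli1*, and rose in both depots, with log2 fold changes of 1.85 and 2.56 (adjusted p = 0.00344 and 9.41e-05).

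The shares of all genes to set beside the lists that follow are 26.9% lower and 24.8% higher on HFD in eWAT and 24.2% lower and 25.9% higher in iWAT, and in lists this short 1 gene moves the share far. By vessel type, 4 of 7 capillary genes (57.1%) were lower on HFD in eWAT and 5 of 7 (71.4%) higher in iWAT. *Gpihbp1*, which holds lipoprotein lipase on capillary walls, had log2 fold changes of -0.86 and 0.83 (adjusted p = 0.0126 and 0.00409), and in *Acod1*-/- eWAT it was higher than in WT (log2 fold change 0.66, adjusted p = 0.0785). *Car4*, a carbonic anhydrase gene of capillaries, fell in eWAT (log2 fold change -1.52, adjusted p = 0.000631). Of 8 arterial genes 3 (37.5%) fell in eWAT and 6 (75%) rose in iWAT, among them *Sema3g* in both (log2 fold changes -0.99 and 0.89, adjusted p = 0.00958 and 0.0117) and the Notch ligand gene *Dll4* in iWAT (0.95, adjusted p = 0.000466). Of 6 venous genes 3 (50%) fell and 2 (33.3%) rose in eWAT, and 4 (66.7%) rose and 1 fell in iWAT. *Ephb4* had log2 fold changes of -1.29 and 0.63 (adjusted p = 0.00104 and 0.00371) and *Vwf*, the von Willebrand factor gene, of -0.63 and 1.35 (adjusted p = 0.0919 and 0.000558), while *Ackr1*, a chemokine-binding receptor gene of venules, rose in both (1.55 and 1.18, adjusted p = 0.00267 and 0.0197).

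Of the lymphatic genes 3 of 7 tested fell and 1 rose in eWAT, and 2 of 8 rose and 2 fell in iWAT, with median log2 fold changes of -0.85 and -1.02. *Ccl21a*, a chemokine gene of lymphatic vessels and lymph nodes, was at 137 ± 68.6 CPM (SD, n = 3) in ND-fed iWAT and at 2.23 ± 3.40 CPM (SD, n = 5) on HFD (log2 fold change -5.86, adjusted p = 0.00249), in the libraries that carried the other lymph node genes. *Pdpn*, which fibroblasts also express, rose in both depots (log2 fold changes 0.89 and 1.48, adjusted p = 0.0237 and 0.00853).

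Mural genes, which mark pericytes and smooth muscle, were lower on HFD in eWAT in 7 of 12 (58.3%) and higher in 1, and higher in iWAT in 6 of 11 (54.5%). *Myh11*, the smooth muscle myosin gene, fell from 120.0 ± 24.6 to 24.3 ± 6.92 CPM in eWAT (SD, n = 4 and 5), with a log2 fold change of -2.31 (adjusted p = 0.000419). *Notch3* (log2 fold change -1.68, adjusted p = 0.000869) and the pericyte gene *Rgs5* (-1.54, adjusted p = 0.00104) fell with it. In iWAT *Mcam* (1.25, adjusted p = 0.0018) and *Pdgfrb* (0.73, adjusted p = 0.00254) were among the mural genes that rose, while *Myh11* and *Rgs5* were at 0.04 and -0.08 (adjusted p = 0.885 and 0.742). Of 11 tip cell genes, which mark the leading cells of sprouts, 4 (36.4%) fell and 1 rose in eWAT, and 9 (81.8%) rose and 1 fell in iWAT. *Cxcr4*, which lymphocytes also express, was the exception in both, higher in eWAT (log2 fold change 1.27, adjusted p = 0.00833) and lower in iWAT (-1.76, adjusted p = 0.000546).

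**Figure D4:**
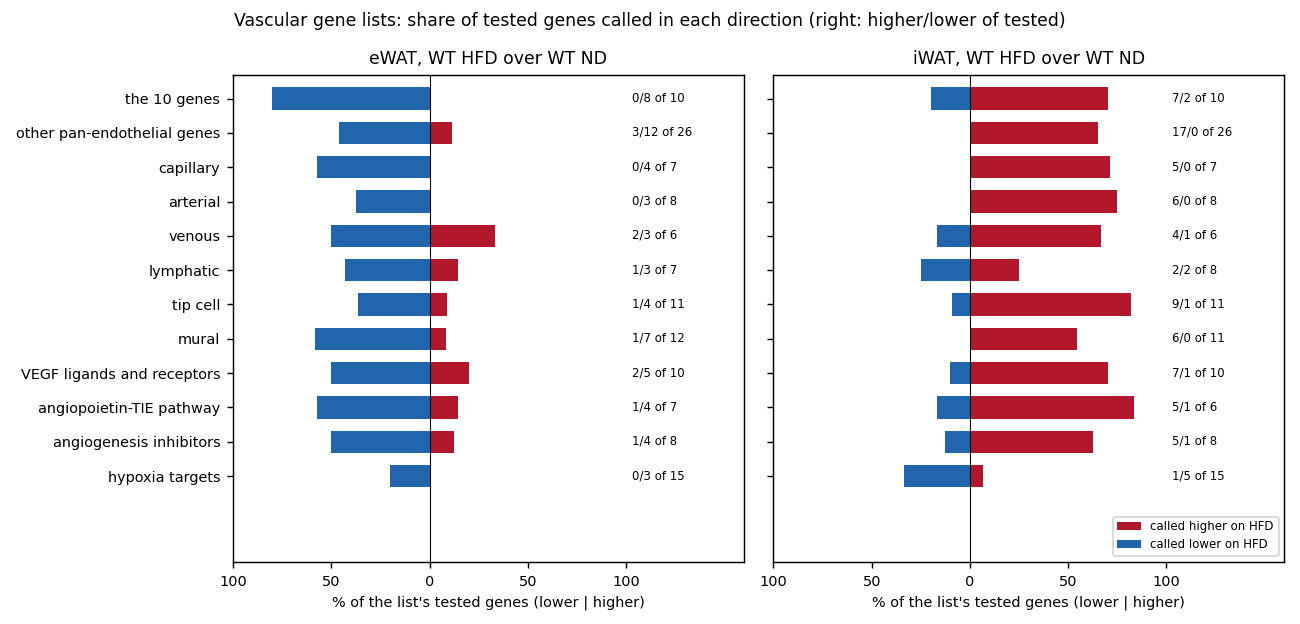
Percent of each list's tested genes called higher (red, right) or lower (blue, left) on HFD in WT mice, in eWAT and iWAT, with the counts at the right of each panel as higher/lower of tested. Some genes are in more than 1 list, and of 26 other pan-endothelial genes 12 are called lower in eWAT and 17 higher in iWAT.

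In the VEGF family of 10 genes, 5 fell and 2 rose on HFD in eWAT and 7 rose and 1 fell in iWAT. *Pgf*, the placental growth factor gene whose product binds the *Flt1* receptor, was at 11.1 ± 4.62 CPM on ND and 4.30 ± 0.647 CPM on HFD in eWAT and at 5.02 ± 0.933 and 8.15 ± 2.21 CPM in iWAT (SD, n = 4, 5, 3 and 5). It fell in eWAT (log2 fold change -1.37, adjusted p = 0.00171) and rose in iWAT (0.73, adjusted p = 0.0673), and the depots differed (-2.07, adjusted p = 0.0011). Of the ligand genes of the *Flt4* receptor, *Vegfc* rose in eWAT and iWAT (log2 fold changes 1.09 and 1.44, adjusted p = 0.0237 and 0.0102), and *Vegfd* rose in iWAT (1.07, adjusted p = 0.000189) and was at 0.36 in eWAT (adjusted p = 0.132). *Vegfc* was lower in *Acod1*-/- than in WT eWAT (-1.01, adjusted p = 0.0593), as was the coreceptor gene *Nrp2* (-0.91, adjusted p = 0.0169), which had risen on HFD there (0.93, adjusted p = 0.0057). *Nrp1*, the coreceptor gene for VEGF-A, rose in iWAT (0.78, adjusted p = 0.00989).

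Of the 7 angiopoietin pathway genes, 4 fell and 1 rose in eWAT, and 5 of 6 tested rose and 1 fell in iWAT. *Angpt4*, a further angiopoietin gene, fell in eWAT from 3.81 ± 1.41 to 0.514 ± 0.21 CPM (SD, n = 4 and 5; log2 fold change -2.88, adjusted p = 0.000605). Of 15 hypoxia target genes tested, 0 rose and 3 (20%) fell in eWAT (*Vegfa*, *Ndrg1* and *Slc2a1*), where 26.9% of all genes fell, and 1 rose and 5 (33.3%) fell in iWAT, where 24.2% of all genes fell, with median log2 fold changes of -0.28 and -0.06. *Car9*, a carbonic anhydrase gene of the same list, was below the filter and not tested, at 0.117 ± 0.102 CPM on ND and 2.03 ± 1.25 CPM on HFD in eWAT (SD, n = 4 and 5). *Pdk1*, which turns glucose carbon away from mitochondria, fell in iWAT (log2 fold change -1.26, adjusted p = 0.000508), and *Adm*, the adrenomedullin gene, rose there (1.32, adjusted p = 0.0248). Of 8 genes of angiogenesis inhibitors, 4 fell and 1 rose in eWAT and 5 rose and 1 fell in iWAT. *Serpinf1*, the gene of pigment epithelium-derived factor, rose in both, from 83.8 ± 33.1 to 321 ± 11.9 CPM in eWAT and from 91.2 ± 32.2 to 363 ± 43.8 CPM in iWAT (SD, n = 4, 5, 3 and 5; adjusted p = 0.000515 and 0.000252), and *Adamts1* fell in eWAT (-0.92, adjusted p = 0.00186) and rose in iWAT (1.20, adjusted p = 0.0233).

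The genes whose log2 CPM over the 25 libraries ran closest to that of *Cdh5*, among 15034 genes and leaving out the 10, were *Fgd5* (Pearson r = 0.951), *Afap1l1* (0.914), *Ptprb* (0.910), *Adgrl4* (0.906), *Arhgef15* (0.876), *Erg* (0.872), *Gpihbp1* (0.869) and *She* (0.865). Of the 10 genes themselves, *Tie1* (r = 0.918) and *Pecam1* (0.852) were closest to *Cdh5*, and *Vegfa* (0.372), *Angpt2* (0.371) and *Angpt1* (0.252) farthest. *Vegfa* ran closest to *Insr* (r = 0.934), *Gm2415* (0.930), *BC035947* (0.922), *Ivd* (0.915) and *Mlxipl* (0.907), of which *Insr* encodes the insulin receptor, *Ivd* an enzyme of leucine breakdown and *Mlxipl* a carbohydrate-responsive transcription factor. Its r was 0.740 with *Kdr* and -0.434 with *Angpt2*. The points share groups, depots and the series of the headers, so that these values describe the 25 libraries and carry no p.

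Reads of *Angpt1*, *Angpt2* and *Cdh5* could be shared with genes on the opposite strand (*Gm17473*, *Mcph1* and *Gm29682*) if strand was not used in counting, which is not given in the sources used here. In GRCm38 *Cdh5* (ENSMUSG00000031871) spans chr8:104101625-104144511, *Kdr* (ENSMUSG00000062960) chr5:75932827-75978458, *Tek* (ENSMUSG00000006386) chr4:94739289-94874976 and *Vegfa* (ENSMUSG00000023951) chr17:46016993-46032369.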

How the data were processed

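Directional RNA-seq libraries of 25 adipose samples were trimmed with cutadapt, cleared of contaminants and aligned with STAR to GRCm38 by the authors. The authors deposited raw counts per gene and FPKM (fragments per kilobase of transcript per M mapped) for each sample. The deposited FPKM follow from the counts and lengths within 0.0005. The counting tool and its use of strand are not given in the sources used here.

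Ensembl IDs were joined to symbols with GENCODE M21. Entries that name no gene were left out (no feature, 6.413 to 11.884%, and ambiguous, 1.519 to 2.07% of reads). Counts were tested with edgeR 4.0.16 (quasi-likelihood, TMM, R 4.3.3) on genes averaging 1 CPM or more over the libraries fitted, Benjamini-Hochberg adjusted over all genes tested and called under 0.1. Diet and genotype were fitted within a depot, and interactions and the depot on ND over all 25 libraries. CPM and FPKM shown use TMM over all 25 libraries. Depth was 31.41 to 52.34 M counts, so counting error is small beside the spread between libraries. DESeq2 1.42.0, other filters, a replicate block, the series numbered in the file headers (which do not say what it is) as a term and each library left out were the alternatives. Replicate numbers were not taken as pairs in the main fits. The labels do not say which libraries of the depots come from the same mouse, and the fits over all 25 libraries took them as independent. The members, lists and named genes (up to 3 a list and comparison, by adjusted p) were chosen with earlier results of these data known. The fits were tested on simulated data.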

Additional observations from a re-analysis of the deposited data

Results flagged for a closer look

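The response to HFD in WT mice differed between eWAT and iWAT by a test of the difference itself (the interaction of depot and diet, edgeR) in 7 of the 10 genes. As eWAT minus iWAT on the log2 scale, the difference was -1.199 for *Pecam1*, -1.618 for *Cdh5*, -1.521 for *Kdr*, -1.276 for *Flt1*, -1.523 for *Flt4*, -1.216 for *Tek* and -1.375 for *Tie1*. All 3 ND-fed iWAT libraries carried lymph node genes, and all ND-fed libraries were in series 2. The part of these in the differences was not tested. Dixon's test, in groups of 4 or 5 libraries only, passed its 95% limit in 0 of 40 combinations of gene and group. These included *Vegfa* in *Acod1*-/- eWAT, where library 3 was at 356 CPM and the others at 100.1 to 189.8 CPM. For *Angpt2* in HFD-fed WT eWAT library 1 also stood apart, at 21.3 CPM with the others at 8.24 to 11.8 CPM. With 4 or 5 libraries a group this test can miss a library that stands apart.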

How the results depend on the processing

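No called gene of the 10 turned its direction under any alternative. With the series of the headers as a term, 5 genes were called for diet in eWAT, 5 in iWAT and 0 for genotype in eWAT. The shares of all genes called there were 34.4%, 38.8% and 19.1%. For genotype in eWAT the count was 0 at an adjusted p under 0.05, without the filter, with the replicate block or with the compared groups alone. The shares of all genes called there were 11.5%, 7.31%, 16.0% and 15.7%. The count was 2 by DESeq2's Wald test and 2 with series 1 libraries alone, where 24.7% and 25.9% of all genes were called. For genotype in iWAT it was 4 by DESeq2's Wald test and 4 with series 1 libraries alone, where 7.24% and 14.9% of all genes were called. For the depot on ND it was 3 at an adjusted p under 0.05 and 3 without the filter, where 24.3% and 12.8% of all genes were called. Leaving out each library gave 7 to 8 genes for diet in eWAT (44.5% to 53.4% of all genes) and 0 to 3 for genotype (11.4% to 28.3%). In iWAT it gave 6 to 9 for diet (37.2% to 54.6%) and 0 to 2 for genotype (0% to 17.9%). The interactions with diet and genotype had 7 to 8 (19.8% to 31.0%) and 0 to 0 (0.00664% to 2.59%). For the depot on ND the count was 2 to 7 (19.6% to 33.6%). For genotype in eWAT the count was 3 without *Acod1*-/- library 5 and 2 without WT HFD library 5, where 28.3% and 21.9% of all genes were called. In iWAT it was 2 without *Acod1*-/- library 3 and 1 without WT HFD library 5, where 17.9% and 1.42% of all genes were called. Between groups of a depot, deviations of same-numbered libraries correlated at -0.278 to 0.261 in eWAT (over 0.1 in 9 of 13 pairs) and at -0.304 to 0.313 in iWAT (3 of 9). Their medians were 0.157 in eWAT and 0.02 in iWAT, against -0.021 and -0.011 for libraries with different numbers. Libraries of different depots were not compared, so mice shared between depots were not tested. The main fits did not take the numbers as pairs. The replicate block called 8 genes for diet in eWAT, 7 in iWAT, 8 for the interaction with diet and 6 for the depot on ND. The shares of all genes called there were 46.2%, 38.3%, 29.5% and 31.5%. Scaled by plain library totals, the level of *Pecam1* in ND-fed iWAT was 189.4 CPM, more than 1 SD from its value, and the other 59 of 60 group levels stayed within 1 SD. The cause of these shifts was not tested.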
